A study of Apis cerana with 76 samples.

Results

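The microRNAs miR-2796, miR-929 and miR-932 were followed through the organs and the life stages of the Asian honey bee, Apis cerana. Every entry carrying one of these names, on either strand, was taken from the authors' counts of organs and of stages. This gave 4 entries (miR-2796-3p, miR-929-3p, miR-929-5p and miR-932-5p) of the 218 distinct entry names held by both tables, with 3 of 146 entries in the stage table and 3 of 171 in the organ table. The study sequenced small RNAs of wild-type bees in 76 libraries to profile them over development and organs, and all groups were untreated as far as the labels say. The 11 organ groups, of 2 libraries each, were worker brain, ovary, venom gland, ventriculus (the midgut) and rectum, drone brain, testis, mucus gland, ventriculus and rectum, and queen ovary. The 18 stage groups, of 3 libraries each, were egg (E), larvae (L1 to L5), pupae with white (W), red (R) or dark red (DR) eyes or with dark red eyes and body (DRB), young adults or nurse bees (YA) and old adults or foragers (OA). Drones were sampled as adults (D), and queens as larvae (QL), as pupae with white (QW), red (QR) or dark red (QDR) eyes and as adults (QA). The labels gave no caste for the larvae and pupae without a Q, and no age in days. The authors' counts held 1 pooled column per group, so that no spread between libraries of a group could be measured.

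A miRNA guides the silencing machinery to messenger RNAs, mostly through its seed, the stretch of bases near its 5′ end that pairs with the target. The precursor hairpin can give a mature miRNA from either arm, named 5p and 3p, and one arm is usually kept at a higher level. In the western honey bee, Apis mellifera, miR-2796 is abundant in the brain and lies within a gene for a phospholipase C, an enzyme of membrane lipid signalling. In the same species miR-932 lies within a gene for a neuroligin, a synaptic adhesion protein, targets actin and takes part in memory.

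The sequences, as deposited by the authors, are shown because the strand that was counted decides which levels can be set side by side. They read 5′ to 3′, with the seed (bases 2 to 8) in capitals.
miR-2796-3p: gUAGGCCGgcggaaacuacuugc
miR-929-3p: cUUCCUAAuagagucaggcug
miR-929-5p: aAAUUGACucuaguagggagu
miR-932-5p: uCAAUUCCguagugcauugcaga
The 4 seeds differed from each other, and 0 other entries of either table had one of these seeds. miR-2796-3p was 23 bases long with a GC content of 60.9%, the highest of the 4, against 38.1% in miR-929-5p. The miR-2796-3p and miR-932-5p sequences were identical in the organ and stage tables. miR-929 was held as its 3p strand in organs and as its 5p strand in stages. Laid against each other without gaps, these strands faced over 20 bases, with 15 Watson-Crick pairs and 2 G-U pairs. The organ and stage values of miR-929 are therefore those of different molecules and were not compared.

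The organ columns summed to between 184457 counts (worker rectum) and 8476499 counts (drone mucus gland), and the stage columns to between 72873 (QA) and 19772824 (DRB). Levels below are CPM, in which every column is brought to the same total and adjusted by the trimmed mean of M-values (TMM). Their 95% Poisson intervals cover counting error only. They take each column as a sum of the reads of its libraries, though whether it is a sum or a mean was not stated. Of 5 brain markers, 2 had both brain columns on top under TMM. miR-124-5p stood at 110 CPM in worker brain and 241 in drone brain against 0 to 12.7 elsewhere. miR-7-5p stood at 10780 and 4659 against at most 4029 in worker ventriculus, but with library totals its drone brain level was below worker ventriculus. The other 3 peaked elsewhere (miR-1000-5p and miR-137-3p in queen ovary, miR-190-5p in drone testis), so the summed list gave 11280 and 5149 CPM in the brains against 1559 to 69140 in other organs. The ovary marker miR-989-3p was highest in worker ovary at 20860 CPM, followed by queen ovary at 8695. The queen ovary column also held the gut marker miR-1175-3p at 383100 CPM. The summed gut list stood at 385000 CPM there, most of it this entry, against 373 to 638 in the brains. The other gut markers, miR-750-3p and miR-281-5p, peaked in worker ventriculus, at 166000 and 8786 CPM. Because of its miR-1175-3p level, the queen ovary column is left out in turn below.

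miR-2796-3p was highest in the brain columns, where it was among the most counted entries. It stood at 47580 CPM in worker brain (95% interval 47090 to 48070) and 39510 CPM in drone brain (39300 to 39720). In the 9 other organs it ran from 66.1 CPM in worker ventriculus through a median of 186 to 836 CPM in queen ovary. The brains did not overlap the rest. Under TMM the lower brain stood 47.3-fold above queen ovary, or 70-fold above the next organ, worker rectum, without that column. These folds were 50.3 and 59.2 with size factors. With library totals worker rectum was the highest other organ, and the lower brain stood 32.3-fold above it. The entry ranked 4 of 171 in worker brain with 3.79% of the counts, and 5 of 171 in drone brain with 2.7%. Summed over the organs with equal weight, 96.8% of its CPM lay in the brain columns.

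Among the organs outside the brain, miR-2796-3p had a graded order. Under TMM and size factors queen ovary came first, and its TMM interval was separate from that of worker rectum at 564 CPM. With library totals worker rectum (835 CPM) stood above queen ovary (631 CPM), and drone testis (280 CPM) above drone ventriculus (246 CPM). Worker rectum and drone rectum (470 CPM) had overlapping counting intervals. Under TMM drone ventriculus followed at 319 CPM, above the group of drone testis (186), drone mucus gland (185), worker ovary (152) and venom gland (117), whose neighbours overlapped. Worker ventriculus was lowest, with an interval separate from that of venom gland. Of 10 neighbouring pairs in the whole order, 4 overlapped.

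**Figure D1:**
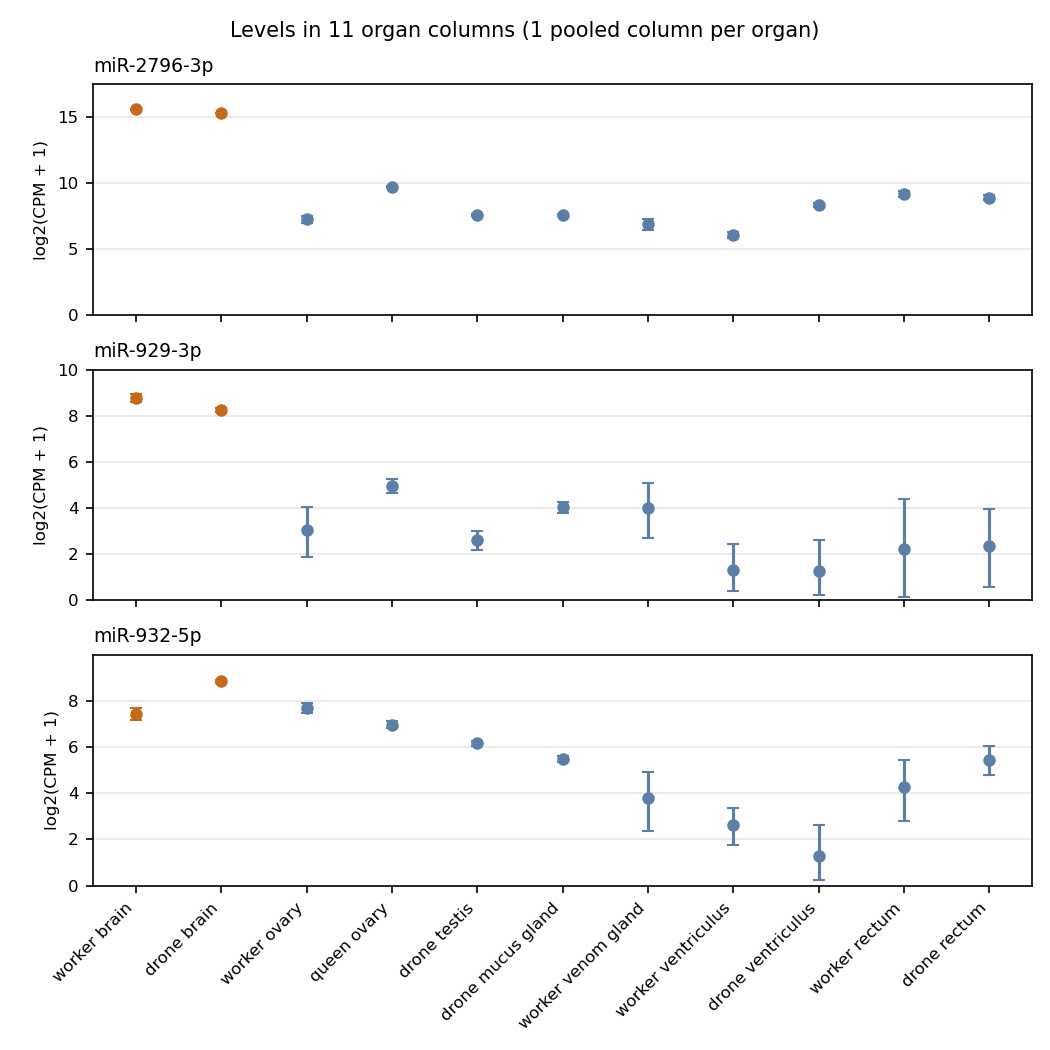
Levels of miR-2796-3p, miR-929-3p and miR-932-5p in the 11 organ columns, as log2(CPM + 1) with 95% counting intervals; each point is 1 pooled column. Both brain columns are above all others for miR-2796-3p and miR-929-3p, whereas for miR-932-5p worker ovary (207 CPM) lies between drone brain (462 CPM) and worker brain (174 CPM), a place that turns with the scaling: below both brains with size factors and above both with library totals.

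miR-929-3p showed the same split at a far lower level. It stood at 444 CPM in worker brain (340 counts) and 313 CPM in drone brain (1069 counts). Its other organs ran from 1.45 CPM in drone ventriculus through a median of 5.11 to 30.7 CPM in queen ovary. The lower brain was 10.2-fold above queen ovary, and the brains held 90% of the CPM summed over organs. Without queen ovary the next organ was drone mucus gland (15.4 CPM), 20.3-fold below, and the share was 93.4%. That fold was 16.9 with size factors and 12.6 with library totals, and the share 93.6% and 90.1%. In 4 organs, the ventriculus and the rectum of both kinds of bee, it rested on at most 3 counts, and 7 of its 10 neighbouring pairs overlapped, so its order outside the brain was mostly not resolved at this depth.

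miR-932-5p was spread over more organs. It stood at 462 CPM in drone brain and 174 CPM in worker brain, and its other organs ran from 1.45 CPM in drone ventriculus through a median of 42.9 to 207 CPM in worker ovary. The worker ovary value, from 172 counts, had an interval overlapping that of worker brain, from 133 counts. With size factors worker ovary (160 CPM) was below worker brain (200 CPM), and with library totals it was at 322 CPM against 138 in worker brain and 315 in drone brain. Queen ovary followed at 124 CPM and drone testis at 70.8 CPM. Both ventriculus columns were at the bottom, with 5.09 CPM in workers. Brain held 54.7% of its summed CPM (57.7% with size factors and 40.7% with library totals), and 6 of its 10 neighbouring pairs overlapped.

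Brain (2 columns) was compared with the other 9 organ columns with edgeR's quasi-likelihood test, two-sided, with Benjamini-Hochberg adjustment over all 125 entries that passed a filter on low counts. The 3 members in the table all passed that filter. A call needed an adjusted p of at most 0.05. Of all entries tested, 9 were higher in brain, which is 7.20%, and 0 were lower. Among the members, 2 of 3 were higher: miR-2796-3p by a log2 change of 6.95 (SE 0.82, adjusted p 0.000114) and miR-929-3p by 5.07 (SE 1.03, adjusted p 0.00733). They ranked 3 and 6 of 125 by size. miR-932-5p had a log2 change of 2.18 (SE 1.31, adjusted p 0.364) and ranked 17. The median entry stood at -1.10, and at -0.75 with size factors or -1.52 with library totals, so the members' changes lay above that of the typical entry under each scaling. Fewer neural cells and less of the miRNA per cell cannot be told apart in such columns.

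Leaving out any 1 of the 11 columns kept miR-2796-3p between 6.51 and 7.28 and miR-929-3p between 4.91 and 5.54, both called each time. The change of miR-932-5p ran from 1.39 (without drone brain) to 3.15 (without worker brain). Without queen ovary, the column high in miR-1175-3p, miR-2796-3p stood at 7.28, miR-929-3p at 5.54 and miR-932-5p at 2.35. Against ventriculus and rectum alone, with a drone term, miR-2796-3p stood at 6.65, miR-929-3p at 6.99 and miR-932-5p at 3.85. Over 18 alternative settings the adjusted p of miR-2796-3p ran from 1.54e-14 to 0.0915 and that of miR-929-3p from 4.17e-06 to 0.372. Both missed the threshold in 1 of them, which dropped the columns under 1000000 counts and so left drone brain alone against 5 organs, with changes of 6.89 and 4.74. miR-932-5p passed in 0 of the 18, with an adjusted p between 0.0993 and 0.652.

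**Figure D2:**
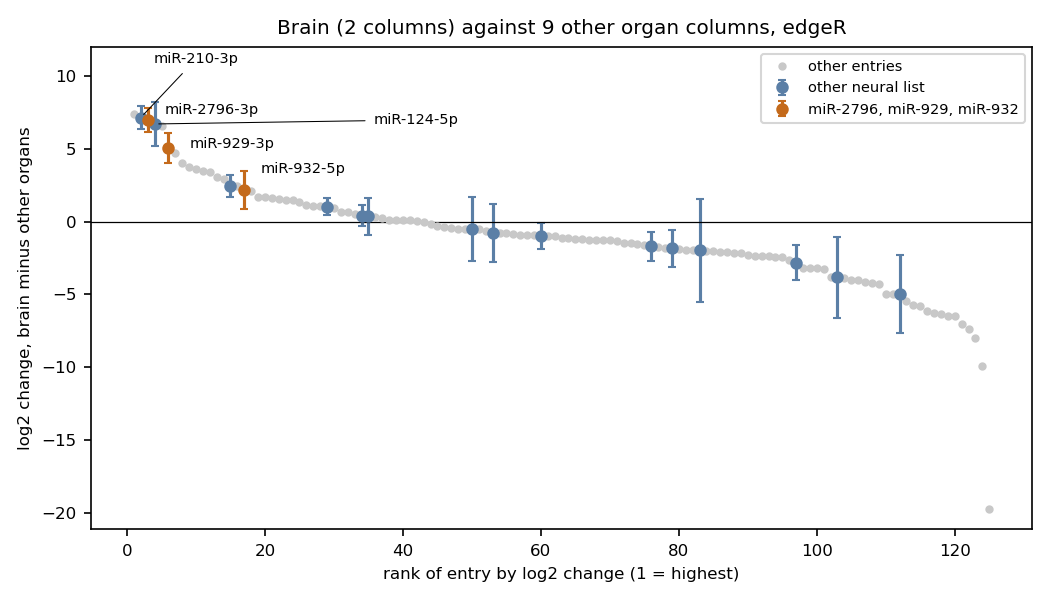
Log2 change between brain and the other organs for the 125 entries tested, ordered by size; orange marks the 3 members, blue the other neural miRNAs listed, and bars are standard errors. miR-2796-3p (6.95) and miR-929-3p (5.07) lie in the top 6, and miR-932-5p (2.18) at rank 17.

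Of 16 other miRNA names known from nervous systems of insects, all arms counted, 15 entries were tested in the same comparison, and 2 were higher in brain and 0 lower. These were miR-210-3p, with a log2 change of 7.15 (SE 0.82, adjusted p 0.000114 by edgeR), and miR-124-5p, with 6.71 (SE 1.51, adjusted p 0.012). The median of the 15 was -0.77, against 5.07 over the 3 members and -1.10 over all 125 entries. With size factors 3 of the 15 were higher.

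By the shape of its organ profile, miR-2796-3p was most like miR-210-3p (Pearson r 0.939), miR-981-5p (0.938) and miR-929-3p (0.884), over 11 columns of log2(CPM + 1) and among 97 candidates with a mean of at least 50 CPM. miR-210-3p had 2871 CPM in worker brain and 5154 in drone brain against 6.61 to 71.6 elsewhere, and miR-981-5p had 335 and 282 against 0 to 7.33. miR-929-3p was most like miR-3785-3p (0.907), miR-252a-5p (0.901) and miR-2796-3p. For miR-932-5p the nearest were miR-252a-5p (0.846), miR-219-3p (0.784) and miR-927b-5p (0.753), lower values than those of the other members. miR-219-3p had 895 CPM in queen ovary, above its 97.9 CPM in worker brain and 115 CPM in drone brain. All columns of a correlation share the scaling, and these values describe the 11 columns only.

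The drone and worker brains differed in which members stood higher. miR-932-5p had 1578 counts (462 CPM) in drone brain and 133 counts (174 CPM) in worker brain, a log2 ratio of 1.41 (counting interval 1.16 to 1.68). miR-2796-3p had a log2 ratio of -0.27 (-0.28 to -0.25), and miR-929-3p of -0.50 (-0.68 to -0.32), both lower in drone brain. With 1 column a side there was no test, and an entry was counted when at least 2-fold apart with 50 CPM or more on its higher side. Of the 86 entries with that level, 18 (20.9%) were higher in drone brain and 17 (19.8%) lower, and miR-932-5p was the 1 member among them. Its ratio was 1.15 with size factors and 1.18 with library totals. In the same order, miR-2796-3p had -0.53 and -0.49, and miR-929-3p had -0.76 and -0.72. These values of miR-2796-3p and miR-929-3p lay outside their counting intervals, which leave out the choice of scaling.

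The brain effect in drones minus that in workers was tested as an interaction over 10 columns, without queen ovary. The difference was 1.52 (SE 2.86) for miR-932-5p, -0.47 (SE 2.15) for miR-2796-3p and -0.61 (SE 2.29) for miR-929-3p on the log2 scale. All 3 had an edgeR adjusted p of 0.9997, and 0 of 130 entries passed. Before adjustment 2 of the 130 entries had an edgeR p under 0.05, none of them a member (lowest member p 0.607, miR-932-5p). DESeq2 was not run on this term. With standard errors of this size neither a difference nor likeness of the effect in drones and workers was shown.

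**Figure D3:**
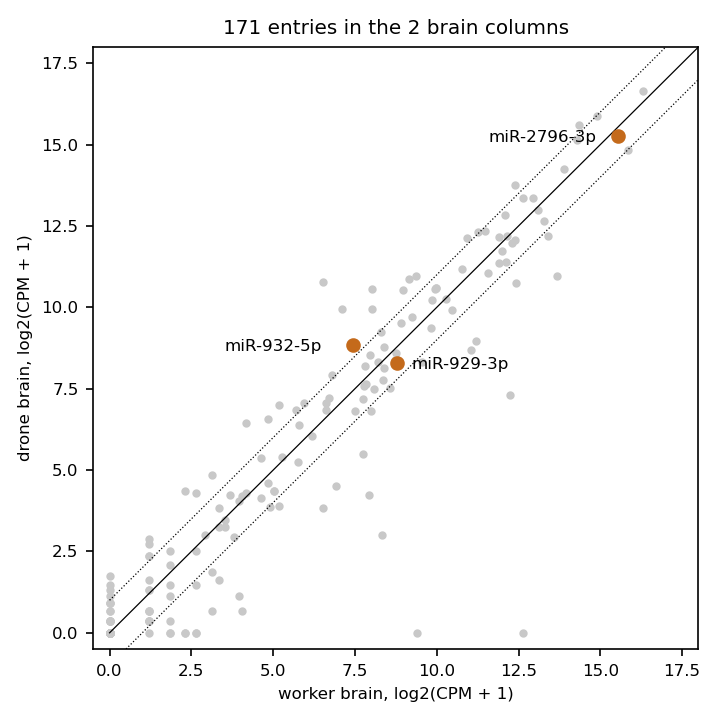
Level of each of the 171 entries in worker brain (x) and drone brain (y), as log2(CPM + 1), with the line of equality and dotted lines at 2-fold; orange marks the members. miR-932-5p lies above the upper dotted line, and miR-2796-3p and miR-929-3p lie just below equality.

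Over the life stages miR-2796-3p was lowest in L1 and highest in OA and adult drones. It stood at 361 CPM in egg and in the larvae at 174 (L1), 314 (L2), 418 (L3), 660 (L4) and 530 CPM (L5). In pupae it stood at 879 (W), 1171 (R), 3760 (DR) and 3034 CPM (DRB). The larval and pupal columns did not overlap, and the largest step between pupae in order of pigmentation was from R to DR, 3.21-fold. Adults were at 3629 (YA), 4431 (OA) and 4429 CPM (D). The highest column, OA, was 25.5-fold above the lowest, L1, which became 37.6-fold with size factors and 62.8-fold with library totals, and 7 of 17 neighbouring pairs in the order of levels had overlapping counting intervals.

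miR-929-5p was counted at a far lower level, under 50 CPM in every stage. The larvae held 4.43 (L1), 1.49 (L2), 2.14 (L3), 0.82 (L4) and 1.82 CPM (L5), the last 3 on 3 to 6 counts. The pupae held 4.68 (W), 7.0 (R), 15.3 (DR) and 30.2 CPM (DRB), all above every larval column. However, the counting interval of W overlapped those of L1, L3 and L5, and that of R overlapped that of L1. Of its 17 neighbouring pairs 14 overlapped. Its highest column was the adult drone, at 41.5 CPM, against 15.8 CPM in YA and 17.3 in OA. Unlike miR-2796-3p, it stood 1.98-fold higher in DRB than in DR, where miR-2796-3p was at 0.807-fold.

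miR-932-5p differed least between larvae and pupae. It stood at 11.7 CPM in egg, at 21.6, 18.0, 10.3, 13.4 and 8.49 CPM in L1 to L5, and at 20.3, 20.1, 22.7 and 35.1 CPM in W, R, DR and DRB. Larvae and pupae overlapped, though not with library totals. Of the adults, YA held 17.8 CPM, OA 6.94 and D 19.6. Of its 17 neighbouring pairs 16 overlapped, so its order over stages was mostly not resolved at this depth.

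**Figure D4:**
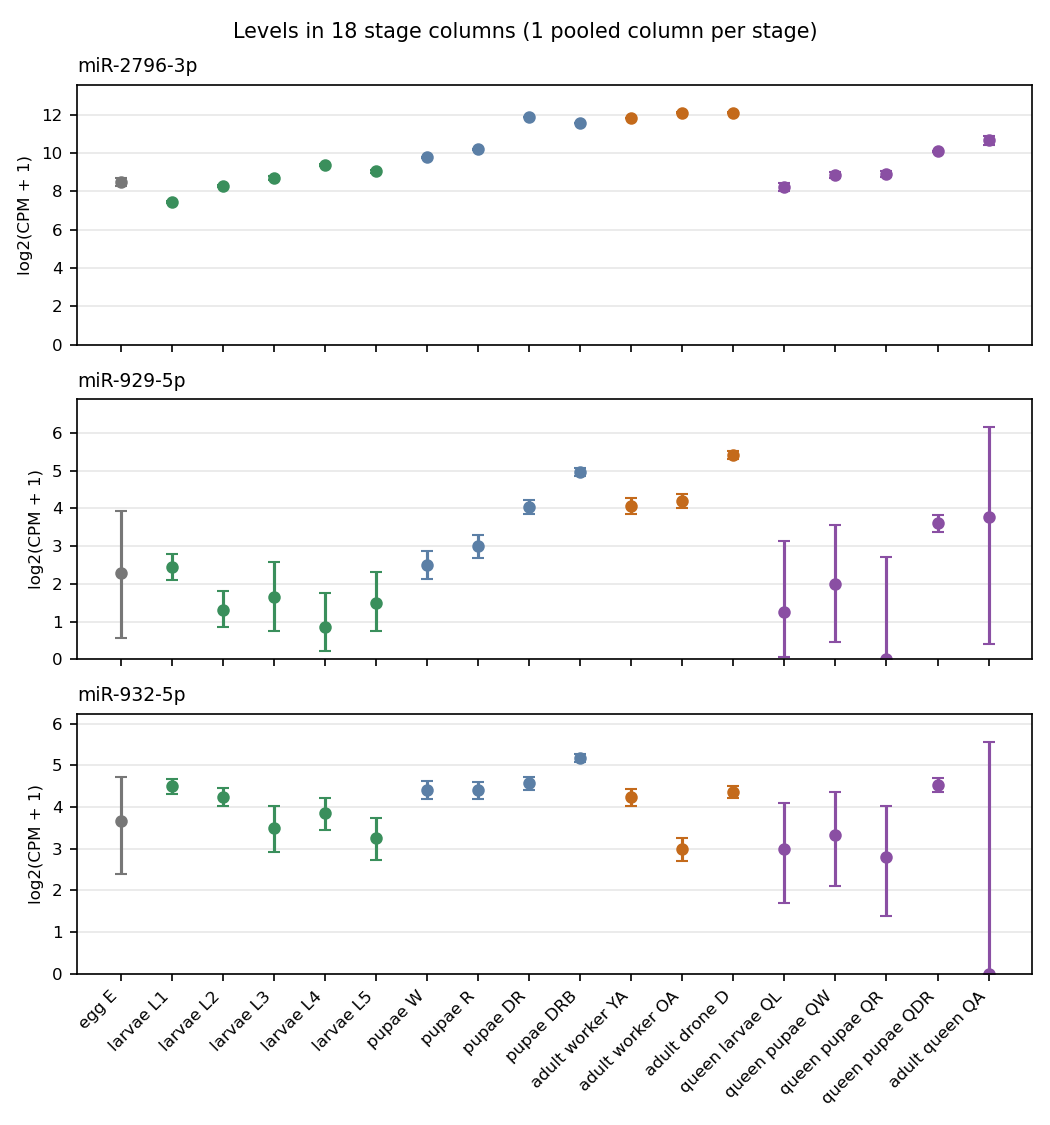
Levels of miR-2796-3p, miR-929-5p and miR-932-5p in the 18 stage columns, as log2(CPM + 1) with 95% counting intervals; each point is 1 pooled column, and the intervals are wide where a member had few counts. For miR-2796-3p and miR-929-5p each of the 4 pupal columns lies above all 5 larval columns, while for miR-932-5p the columns overlap. For miR-929-5p the interval of W overlaps those of L1, L3 and L5, and that of R overlaps that of L1.

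Pupae (4 columns) were compared with larvae (5 columns) in 1 edgeR fit of all 18 columns in 8 classes, over 145 entries. Of these, 26 (17.9%) were higher in pupae and 32 (22.1%) lower. With size factors the split was 29 higher and 26 lower, and with library totals 37 and 18. The 3 members in the table were all tested, and 2 of them were higher in pupae. miR-2796-3p averaged 419 ± 188 CPM in larvae (SD over 5 stages) and 2211 ± 1410 CPM in pupae (SD over 4 stages), with a log2 change of 2.40 (SE 0.53, adjusted p 0.0049). miR-929-5p averaged 2.14 ± 1.37 and 14.3 ± 11.5 CPM, with a log2 change of 2.69 (SE 0.72, adjusted p 0.0102). With 1 column left out, the change of miR-929-5p ran from 2.02 (without DRB) to 3.86 (without L1), and that of miR-2796-3p from 2.21 to 2.80. Both passed in all 15 alternatives, with an adjusted p of 0.0358 at most.

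miR-932-5p averaged 14.4 ± 5.43 CPM in larvae and 24.6 ± 7.15 CPM in pupae, and its log2 change of 0.77 (SE 0.45, edgeR adjusted p 0.187) did not pass. It passed in 3 of 15 alternatives, namely with library totals (1.22, adjusted p 0.0321), without L1 (1.56, adjusted p 0.0306) and with only the larval and pupal columns (1.23, adjusted p 0.0435). Over all 15 the adjusted p ran from 0.0306 to 0.41. The median entry stood at -0.15, and at 0.04 with size factors and 0.30 with library totals.

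Of 13 tested entries of the neural list, 8 were higher in pupae and 2 lower, with a median log2 change of 1.30 against -0.15 over all 145 entries. With size factors 8 were higher and 1 lower, and with library totals 9 and 0. The highest of them was miR-210-3p, with a log2 change of 3.44 (SE 0.64, adjusted p 0.00162 by edgeR), followed by miR-1000-5p at 2.08, miR-87a-3p at 1.82, miR-263a-5p at 1.75 and miR-219-3p at 1.64. The lower ones were miR-279c-3p at -1.61 and miR-137-3p at -0.99. miR-124-5p, called in brain, stood at -0.09 (SE 0.52, adjusted p 0.909). miR-210-3p passed both in brain and in pupae, as miR-2796-3p did.

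Adult workers (YA and OA) were set against the 4 pupal columns in the same fit. Of 145 entries 11 passed in either direction, 7.59%, and 0 of the 3 members did. miR-2796-3p averaged 4030 CPM in the adult workers, with a log2 change of 0.87 (SE 0.65, adjusted p 0.336). YA and OA stood at 3629 and 4431 CPM beside 3760 in DR and 3034 in DRB, but OA was at 5839 CPM with size factors and 8607 with library totals, against at most 3424 in DR and DRB. miR-929-5p stood at 0.21 (SE 0.87, adjusted p 0.868) and miR-932-5p at -0.99 (SE 0.60, adjusted p 0.248). The direction of miR-929-5p turned when W, R, DR or YA was left out, with values from -0.11 to 0.88 over the 6 columns left out in turn. miR-932-5p ran from -2.07 (without YA) to -0.47 (without OA). The members did not pass in any of 12 alternatives. Of 13 neural entries 0 passed, and with library totals 1 was lower.

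Between the adult worker groups, OA held 82 counts of miR-932-5p against 186 in YA, a log2 ratio of -1.24 (counting interval -1.75 to -0.97), which became -1.04 with size factors and -0.43 with library totals. miR-2796-3p was higher in OA by 0.29 (0.27 to 0.31), which became 0.53 with size factors and 1.19 with library totals. miR-929-5p had a ratio of 0.13 with an interval from -0.16 to 0.44. Under TMM, 82 entries had at least 50 CPM on a side. Of these, 32 (39.0%) were at least 2-fold lower in OA and 13 (15.9%) higher. miR-2796-3p, the member among the 82, was in neither count, but its ratio of 1.19 with library totals was past 2-fold. The TMM factor was 1.94 in OA and 1.04 in YA, and the shares were not counted under the other scalings. miR-932-5p and miR-929-5p were below 50 CPM on both sides, and no test was possible with 1 column each.

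In queens miR-2796-3p was also higher in the dark red eye pupae than in the paler ones. It stood at 301 CPM in QL, 468 in QW, 473 in QR, 1096 in QDR and 1624 in QA (129 counts). The step from QR to QDR was 2.32-fold, and 1.72-fold with size factors. miR-929-5p was at 11.1 CPM in QDR from 126 counts, but rested on 2 counts in QW and 1 count each in QL and QA. In QR it had 0 counts, where 3 counts would be 4.47 CPM. miR-932-5p was at 8.99 CPM in QW, 5.95 in QR and 22.1 in QDR, and had 0 counts in QA, where 3 counts would be 37.8 CPM.

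Each queen pupal column was lower than the plain pupal column of the same eye colour for all 3 members, in 3 of 3 pairs each. Of the 137 entries tested, 33 (24.1%) were lower in all 3 pairs and 28 (20.4%) higher, and the median log2 change was -0.26. For miR-2796-3p the queen and plain values were 468 and 879 CPM (white), 473 and 1171 CPM (red), and 1096 and 3760 CPM (dark red). Its counting intervals were separate in each pair. Those of miR-929-5p overlapped at white and red (2 and 0 queen counts), and those of miR-932-5p at white (6 queen counts) and at dark red, where the levels were 22.1 and 22.7 CPM. With a term for eye colour, edgeR gave a log2 change of -1.50 (SE 0.33, adjusted p 0.227) for miR-2796-3p, -1.31 (SE 0.72, adjusted p 0.345) for miR-929-5p and -1.06 (SE 0.46, adjusted p 0.263) for miR-932-5p. None of the 137 entries passed (0%), while 27 had an unadjusted p under 0.05 and DESeq2 called 19.

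DESeq2 called miR-2796-3p lower in queen pupae (log2 change -1.24, adjusted p 0.00168). Over 11 alternatives its adjusted p ran from 2.23e-07 to 0.897, and apart from DESeq2 it passed when the dark red pair was broken by leaving out DR or QDR (-1.20). Both fits then rest on the same 2 pairs, with 1 residual degree of freedom. miR-932-5p passed there too (-1.53), as did 63 entries in all. QW and QR held 647990 and 690134 counts, against 6936161 in W and 10161463 in R, and the part of this depth gap in the difference was not tested.

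Within a column, the ratio of members does not depend on the scaling. For every 1000 reads of miR-2796-3p, miR-929-3p had 9.33 in worker brain and 7.92 in drone brain. Elsewhere it had between 4.56 (drone ventriculus, 2 counts) and 130 (venom gland, 6 counts beside 46 of miR-2796-3p). miR-932-5p had 3.65 in worker brain and 11.7 in drone brain, against 4.56 in drone ventriculus (2 counts), 148 in queen ovary, 236 in mucus gland and 381 in drone testis. In worker ovary it outnumbered miR-2796-3p, at 1370 per 1000.

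In the stages, miR-932-5p went from 124 per 1000 reads of miR-2796-3p in L1 to 16 in L5. It stood at 23.1 in W, 17.2 in R, 6.04 in DR, 11.6 in DRB, 4.89 in YA and 1.56 in OA. miR-929-5p stayed between 3.91 and 9.95 per 1000 in the plain pupae and adults, and its L1 value of 25.5 (48 counts) was above all of those. Over the 18 stage columns, the entries most like miR-2796-3p were miR-927b-5p (Pearson r 0.926), miR-1-3p (0.917), a muscle miRNA, and miR-927a-3p (0.863), among 85 candidates. miR-929-5p and miR-932-5p averaged 9.69 and 15 CPM, too low for that comparison.

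**Figure D5:**
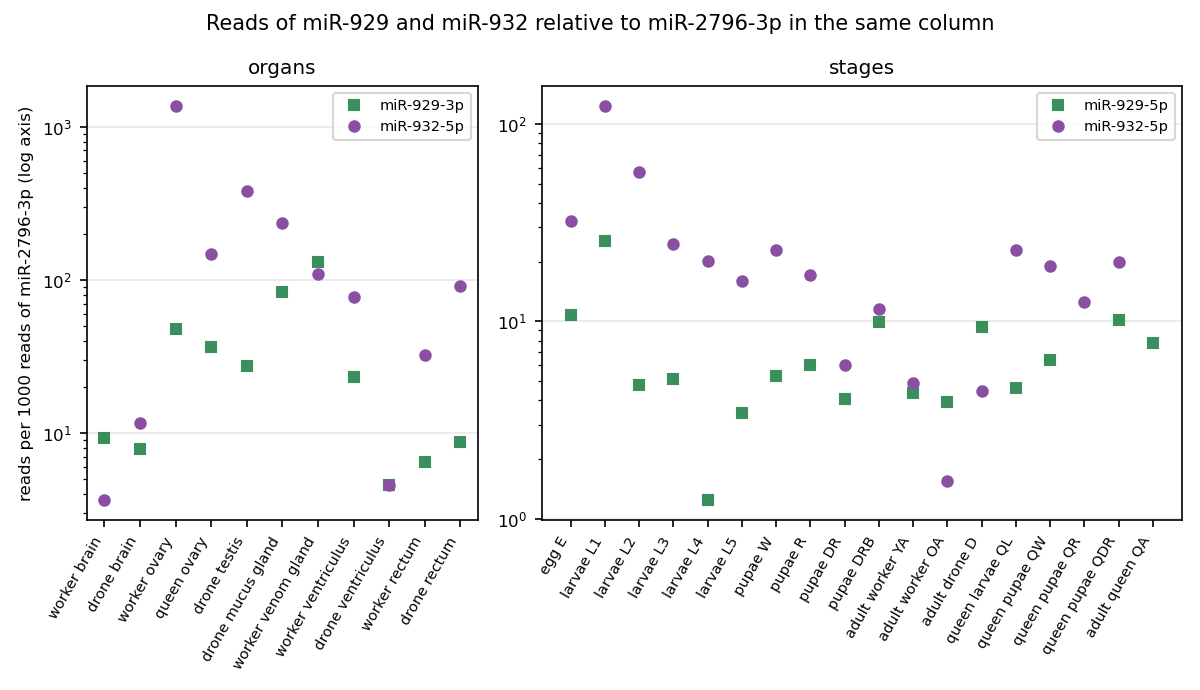
Reads of miR-929 and miR-932 per 1000 reads of miR-2796-3p in the same column, on a log axis, in organs (left, miR-929-3p) and stages (right, miR-929-5p); points at 0 are not drawn. miR-932-5p spans 3.65 (worker brain) to 1370 (worker ovary) in organs, and lies between 124 (L1) and 1.56 (OA) in stages.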

How the data were processed

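Per the labels, organs and stages of wild-type Apis cerana gave total RNA for small RNA libraries. Per the submitters' processing notes, bcl2fastq and kallisto were used; versions, settings and genome build are not given in the sources used here. The authors deposited raw counts per miRNA in 2 tables with 1 pooled column per group, and whether a column is a sum or a mean of its libraries was not stated. Their sequencing statistics list 3342198 to 42423614 reads per stage library and 8712094 to 14909432 per organ library.

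The members, the gene lists and the tests were chosen with earlier results of these data known. Named entries were the members, the 3 entries most like each member with a mean of 50 CPM, and neural list entries that passed (up to 5 in each direction). The markers checked the labelled organs. Other entries named have the comparison's values beside them. The neural list left out the members.

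Each pooled column was 1 unit, so p-values measure the spread between organs or stages, not between bees or libraries. Counts were tested in R 4.3.3 with edgeR 4.0.16 (quasi-likelihood, TMM scaling, filterByExpr with a minimum count of 10), and DESeq2 1.42.0 was an alternative. Residual degrees of freedom were 9 for brain, 10 for stages and 2 for queen pupae. The SE is the size of the log2 change divided by the root of F. Intervals are exact at 95%, a floor is 3 counts, and log2 levels had 1 CPM added. The test code was checked beforehand on simulated counts. The alternatives were size factors, library totals, no filter, other groupings and leaving out each column. The RefSeq table held no entry for these miRNAs, so no coordinates are given.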

Additional observations from a re-analysis of the deposited data

How the results depend on the processing

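No paired analysis was possible because the count tables hold 1 pooled column per group, with no replicate numbers. The term for eye colour in queen pupae matches stages, not replicates, and 0 entries passed with or without it (9 at an unadjusted p under 0.05 without it, where DESeq2 was not run). The fit without columns under 1000000 counts was chosen after seeing the data. In brain against other organs, members called fell from 2 to 0 in that fit, and all entries called went from 9 to 17 with DESeq2, 15 against ventriculus and rectum alone, and 0 without the small columns (12 at an unadjusted p under 0.05, DESeq2 not run there). In adult workers against pupae, all entries called went from 11 to 19 with library totals, 36 with DESeq2 and 0 in a fit of pupae and adult workers alone (29 at an unadjusted p under 0.05), and from 0 (without R or OA) to 39 (without YA) when 1 column was left out. The log2 change of miR-929-5p there turned sign, with -0.11 to 0.88 over the columns left out (-0.08 without W, -0.02 without R, -0.11 without DR and -0.04 without YA). In queen pupae, entries called went from 0 to 19 and members from 0 to 1 with DESeq2, and with 1 column left out they ran from 0 to 63 and from 0 to 2. In pupae against larvae, members called ran from 2 to 3 and all entries from 42 to 59 with 1 column left out. The causes were not tested. Levels resting on at most 3 counts limit miR-929 in 4 organs and 6 stages, and miR-932-5p in 1 of each.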
